A study of Mus musculus with 11 samples.

Results

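The genes of the Notch pathway described here are the 4 receptors Notch1, Notch2, Notch3 and Notch4, the 4 ligands Jag1, Jag2, Dll1 and Dll4, the target gene Hes1 and the Notch inhibitor homologue Numbl. They were found by matching the Ensembl identifiers of the expression table to these symbols, which gave 10 of the 21899 genes listed. RNA of bluntly dissected airway from wild-type male BALB/c mice aged 6 to 8 weeks was sequenced from mice treated with PBS (3 libraries), with OVA/LPS/Vehicle (4 libraries, called Vehicle below) or with OVA/LPS/GGsTop (4 libraries, called GGsTop below). PBS mice were not sensitised and received PBS only. OVA/LPS/Vehicle mice were sensitised to ovalbumin (OVA) with alum on days 0 and 7, received intranasal OVA on days 14 to 17 and lipopolysaccharide (LPS) on days 19 and 21, and were given vehicle into the trachea on days 21, 22 and 23. OVA/LPS/GGsTop mice had the same sensitisation and challenge, with GGsTop, an inhibitor of γ-glutamyl transferase, at 0.5 mg/kg in place of vehicle, and tissue was taken on day 25. The series labels call the tissue trachea, whereas the methods describe airway from which the trachea had been removed. The OVA/LPS/Vehicle libraries carry the labels 12, 34, 56 and 78, and whether these are pools of mice is not stated. The labels do not say that libraries came from separate animals, so p-values measure only the spread between these libraries, which may be technical.

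Notch receptors are membrane proteins that are activated by ligands of the Jagged and Delta-like families on neighbouring cells. Ligand binding leads to cleavage of the receptor by ADAM proteases and γ-secretase, and the freed intracellular domain enters the nucleus, where it joins the DNA-binding protein RBPJ and a Mastermind-like coactivator to switch on targets of the Hes and Hey families. In the airway the pathway is known for directing epithelial progenitors towards secretory rather than multiciliated cells, NOTCH3 is known from vascular smooth muscle and pericytes, and NOTCH4 and DLL4 are known from endothelium.

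Expression was given as FPKM, fragments scaled to the exon length of the gene and to the total fragments of the library. This scaling leaves in place the differences between libraries in GC content dependence and mitochondrial share given below. Levels of different genes and libraries are compared with that limit. The fragments implied by the FPKM numbered 14513136 to 18632382 per library, and the 10 genes had from 221 (Numbl, Vehicle 56) to 11368 (Notch4, PBS 3) fragments in a library. Of the 6 club cell markers, Scgb1a1, a secreted protein of club cells, was at a mean of 32057, 41727 and 41966 FPKM in PBS, Vehicle and GGsTop. The next highest, Scgb3a2, was at 502, 1646 and 1145 FPKM. The 6 markers were not uniform, and their changes in log2(FPKM + 1) from PBS to Vehicle ran from -1.81 to 1.85. Libraries differed in how the level of a gene depended on the GC content of its transcript, given as the slope of log2(FPKM + 1) per 10 points of GC content. This slope was 0.0611 and 0.0484 in PBS 1 and PBS 2 but 0.533 in PBS 3, between -0.261 and -0.190 in the Vehicle libraries, and between 0.0464 and 0.108 in the GGsTop libraries. Mitochondrial genes held 0.901% to 4.23% of the fragments in PBS, 6.73% to 8.70% in Vehicle and 3.20% to 4.94% in GGsTop. Both measures set the Vehicle libraries apart from all others, and their part in the results was not tested beyond the calls given below after a correction for GC content and with mitochondrial fragments left out of the total. Vehicle 12 carried more RNA of immature thymocyte markers, with a summed level of 71.2 FPKM against 11.2 to 22.2 FPKM in the other 10 libraries. GGsTop 4 had the lowest sum of endothelium markers (619 FPKM) and the highest of smooth muscle (1086 FPKM), multiciliated (373 FPKM) and basal cell markers (82.5 FPKM). Over all libraries the summed club cell markers, mostly Scgb1a1, were at 29089 to 51395 FPKM, the basal cell markers at 1.32 to 82.5 FPKM and the leukocyte markers at 161 to 293 FPKM.

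In the PBS group, Notch4 (mean 49.6 ± 25.5 FPKM, SD, n = 3) and Dll4 (45.9 ± 15.4 FPKM) were the highest of the 10 genes, followed by Hes1 (33.4 ± 5.01 FPKM), Notch3 (21.7 ± 7.72 FPKM), Notch1 (16.1 ± 7.14 FPKM) and Notch2 (16.0 ± 2.49 FPKM). Jag1 (14.2 ± 0.950 FPKM), Dll1 (14.1 ± 5.31 FPKM) and Jag2 (12.01 ± 3.88 FPKM) came next, and Numbl (3.91 ± 0.650 FPKM) was the lowest. In this order the ranges of the libraries overlapped between all neighbours except Hes1 and Notch3, and Jag2 and Numbl. In the Vehicle group the order was Hes1 (27.9 ± 2.21 FPKM, SD, n = 4), Notch4 (19.5 ± 0.892 FPKM), Dll4 (16.7 ± 1.62 FPKM), Jag1 (15.5 ± 0.946 FPKM), Notch2 (10.6 ± 1.27 FPKM), Dll1 (10.3 ± 1.51 FPKM), Jag2 (9.24 ± 0.543 FPKM), Notch3 (8.75 ± 1.22 FPKM), Notch1 (5.42 ± 0.957 FPKM) and Numbl (1.99 ± 0.361 FPKM). Neighbours had separate ranges between Hes1 and Notch4, Jag1 and Notch2, Notch3 and Notch1, and Notch1 and Numbl, and overlapping ranges elsewhere. In the GGsTop group Notch4 (40.0 ± 15.9 FPKM, SD, n = 4), Hes1 (33.5 ± 5.73 FPKM) and Dll4 (24.7 ± 9.53 FPKM) were again the highest and Numbl (4.20 ± 0.432 FPKM) the lowest, and only Notch1 (12.6 ± 2.61 FPKM) and Numbl were neighbours with separate ranges. Between them lay Jag1 (17.4 ± 2.24 FPKM), Dll1 (15.2 ± 5.87 FPKM), Notch3 (14.9 ± 2.25 FPKM), Notch2 (14.6 ± 1.76 FPKM) and Jag2 (14.4 ± 3.70 FPKM).

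**Figure D1:**
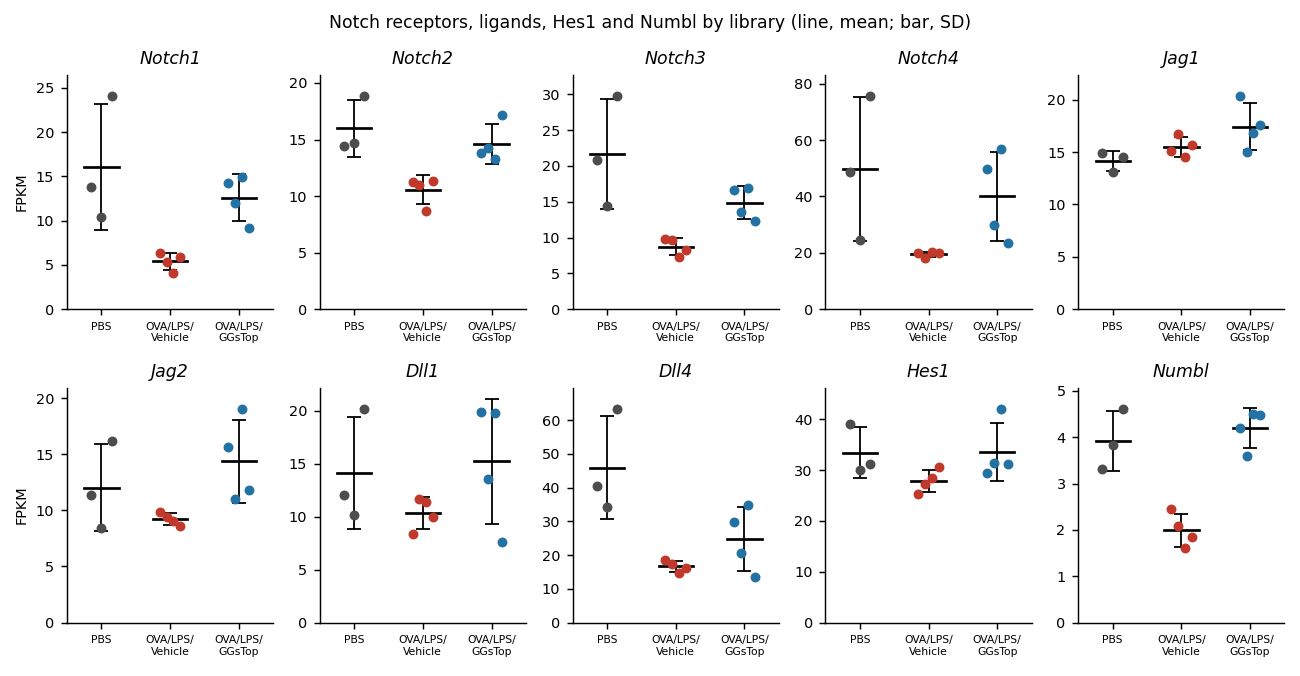
FPKM of the 10 Notch genes in each library of the PBS (n = 3), Vehicle (n = 4) and GGsTop (n = 4) groups; points are libraries, lines are means and bars are SD. For Notch1, Notch2, Notch3, Notch4 and Numbl every Vehicle library lies below every library of both other groups.

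The receptor genes are described first. Notch1 (ENSMUSG00000026923) was at 13.8, 10.4 and 24.1 FPKM in PBS 1 to 3, at 6.34, 5.31, 4.13 and 5.90 FPKM in Vehicle 12, 34, 56 and 78, and at 14.3, 12.04, 14.9 and 9.14 FPKM in GGsTop 1 to 4. All Vehicle libraries lay below all others, while the PBS and GGsTop ranges overlapped. Notch2 (ENSMUSG00000027878) was at 14.4, 14.7 and 18.9 FPKM in PBS, at 11.2, 11.01, 8.68 and 11.4 FPKM in Vehicle and at 13.8, 14.2, 13.3 and 17.2 FPKM in GGsTop. The same separation of the Vehicle libraries was seen, with a smaller distance between the groups. Notch3 (ENSMUSG00000038146) was at 20.8, 14.4 and 29.8 FPKM in PBS, at 9.76, 9.71, 7.24 and 8.27 FPKM in Vehicle and at 16.6, 13.6, 16.96 and 12.4 FPKM in GGsTop. Notch4 (ENSMUSG00000015468) was at 48.5, 24.6 and 75.7 FPKM in PBS, at 19.8, 18.2, 20.3 and 19.9 FPKM in Vehicle and at 49.9, 30.01, 56.8 and 23.4 FPKM in GGsTop. Both were again lowest in every Vehicle library, and Notch4 varied most within the PBS and GGsTop groups, where PBS 2 and GGsTop 4 came closest to the Vehicle level.

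The ligand genes were less uniform. Jag1 (ENSMUSG00000027276) lay at 14.9, 13.1 and 14.5 FPKM in PBS, at 15.1, 16.7, 14.5 and 15.6 FPKM in Vehicle and at 20.4, 15.0, 16.8 and 17.6 FPKM in GGsTop. It was the ligand with the least difference between PBS and Vehicle, and all GGsTop libraries lay above all PBS libraries. Jag2 (ENSMUSG00000002799) lay at 11.4, 8.46 and 16.2 FPKM in PBS, at 9.89, 9.43, 9.02 and 8.63 FPKM in Vehicle and at 15.6, 11.001, 19.02 and 11.8 FPKM in GGsTop. Dll1 (ENSMUSG00000014773) lay at 12.1, 10.1 and 20.1 FPKM in PBS, at 8.38, 11.7, 11.3 and 9.97 FPKM in Vehicle and at 19.8, 13.6, 19.8 and 7.59 FPKM in GGsTop. The GGsTop libraries were all above the Vehicle libraries for Jag2, and for Dll1 all 3 groups overlapped, with GGsTop 4 the lowest library. Dll4 (ENSMUSG00000027314), the ligand of endothelial tip cells, lay at 40.4, 34.1 and 63.3 FPKM in PBS, at 18.6, 17.4, 14.8 and 16.2 FPKM in Vehicle and at 29.7, 20.6, 34.9 and 13.5 FPKM in GGsTop. PBS and Vehicle were far apart for Dll4, and the GGsTop libraries spread from below the lowest Vehicle library to just above the lowest PBS library.

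Hes1 (ENSMUSG00000022528), a transcriptional repressor and the best known target of the pathway, was at 39.2, 29.99 and 31.1 FPKM in PBS, at 25.3, 27.2, 28.4 and 30.6 FPKM in Vehicle and at 29.4, 31.4, 42.0 and 31.2 FPKM in GGsTop. The ranges of all groups overlapped. Numbl (ENSMUSG00000063160), the paralogue of the Notch inhibitor Numb, was at 3.31, 3.82 and 4.60 FPKM in PBS, at 2.44, 2.09, 1.60 and 1.84 FPKM in Vehicle and at 4.20, 3.58, 4.51 and 4.49 FPKM in GGsTop. Every Vehicle library lay below every library of the other groups. Of all genes tested, 13.2% had their Vehicle libraries below all libraries of both other groups.

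Notch3 was 1 of the 3 genes that passed the test both in Vehicle against PBS and in GGsTop against Vehicle, beside Notch1 and Numbl, and the 250 bases before its start are shown because it was the 1 gene of the 10 whose matched window no annotated exon overlapped. The window is chr17:32166891-32167140 on the minus strand, from RefSeq on GRCm38.p6. It is written 5′ to 3′, and capitals mark matches on either strand to the GC box GGGCGG, the letters bound by Sp1-like factors.

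Notch3: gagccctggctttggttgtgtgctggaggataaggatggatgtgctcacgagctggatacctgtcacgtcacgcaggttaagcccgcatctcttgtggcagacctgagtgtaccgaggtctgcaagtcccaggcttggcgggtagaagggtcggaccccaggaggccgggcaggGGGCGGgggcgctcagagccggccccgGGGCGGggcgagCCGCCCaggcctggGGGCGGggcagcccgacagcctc

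This window holds 4 GC boxes and has a GC content of 68.8%. RefSeq windows of this length were matched for 9 of the 10 genes, all but Hes1, and were searched for the RBPJ letters GTGGGAA, the GC box GGGCGG and the E-box CACGTG on both strands. The GC box was found before 6 of the 9 genes (Notch1, Notch2, Notch3, Jag2, Dll4 and Numbl), against 32.7% of all 32851 windows and before 31 of the 45 matched genes of the wider pathway list described below. Dll1 had 2 windows, and the windows of 8 of the 9 genes overlapped annotated exons. The RBPJ letters and the E-box were found before 0 of the 9, against 5.4% and 6.0% of all windows. Notch1, Notch2, Jag2 and Numbl each had 5 GC boxes and Dll4 had 2, whereas Notch4, Jag1 and Dll1 had 0.

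The comparison of Vehicle with PBS sets the whole course of alum, OVA, LPS and vehicle against PBS only, and these parts cannot be told apart. All 4 receptor genes were lower in Vehicle. On the scale of log2(FPKM + 1), Notch1 fell by 1.34 (SE 0.247, adjusted p = 0.00452), which is a 2.54-fold lower level, and Notch3 fell by 1.17 (SE 0.207, adjusted p = 0.00413), a 2.25-fold lower level. Notch4 fell by 1.16 (SE 0.352, adjusted p = 0.0248) and Notch2 by the smaller value of 0.55 (SE 0.133, adjusted p = 0.0107). Of the ligands, Dll4 fell by 1.36 (SE 0.285, adjusted p = 0.00659), a 2.57-fold lower level. Jag1 (log2 fold change 0.12, 95% interval -0.12 to 0.36), Jag2 (-0.30, -0.76 to 0.15) and Dll1 (-0.37, -1.03 to 0.29) did not pass the test. Hes1 did not pass it either (-0.25, -0.55 to 0.06), while Numbl fell by 0.72 (SE 0.130, adjusted p = 0.00443). In all, 6 of the 10 genes were lower and 0 higher at an adjusted p under 0.05 by limma, beside 22.1% of all 14004 genes tested that were lower and 15.9% that were higher. The groups did not overlap for the same 6 genes, beside 25.4% of all genes that were lower without overlap. By limma voom on the recovered fragments the counts were also 6 lower and 0 higher, beside 22.4% of all genes called lower, and at an unadjusted p under 0.05 no further gene was added. With mitochondrial fragments left out of the total the count was also 6. In bulk tissue, fewer cells of a type and less RNA per cell cannot be told apart.

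The share of genes called lower rose with GC content, and all of the 10 Notch genes but Jag1 were above the median GC content of 49.9%. Across 13987 genes the log2 fold change of Vehicle against PBS had a Spearman's rho of -0.593 with GC content, a description over genes that share the same 11 libraries. Notch1, Notch3, Notch4, Jag2 and Dll4, at 55.9% to 61.9%, were in the top 20% of genes by GC content, where 48.9% of genes were called lower, and 4 of these 5 were. Notch2, Dll1 and Numbl were in the next 20%, where 37.1% were called lower, and 2 of these 3 were. Jag1 and Hes1 were in the middle 20%, where 18.98% were called lower, and 0 of these 2 were. After the correction for GC content, 5 of the 10 genes were lower, beside 12.9% of all genes: Notch1 fell by 1.02 (SE 0.218, adjusted p = 0.0146), Dll4 fell by 1.08 (SE 0.280, adjusted p = 0.0248), Notch3 fell by 0.80 (SE 0.174, adjusted p = 0.0151), Numbl fell by 0.50 (SE 0.107, adjusted p = 0.0148) and Notch2 fell by 0.37 (SE 0.108, adjusted p = 0.0343) by limma. Notch4 was at -0.79 (SE 0.331, adjusted p = 0.102). With the correction and without PBS 3, the library with the steepest slope, 0 of the 10 genes passed limma, beside 1.12% of all genes called lower, and Notch1 was at -0.79 (adjusted p = 0.0655), Notch3 at -0.66 (adjusted p = 0.0715), Notch2 at -0.29 (adjusted p = 0.137), Numbl at -0.45 (adjusted p = 0.0664) and Dll4 at -0.90 (adjusted p = 0.112). Without the correction, the call of Notch4 was lost when PBS 1 (adjusted p = 0.0652), PBS 3 (-0.80, adjusted p = 0.123) or Vehicle 34 (adjusted p = 0.0543) was left out, and the other 5 calls held without any single library.

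**Figure D2:**
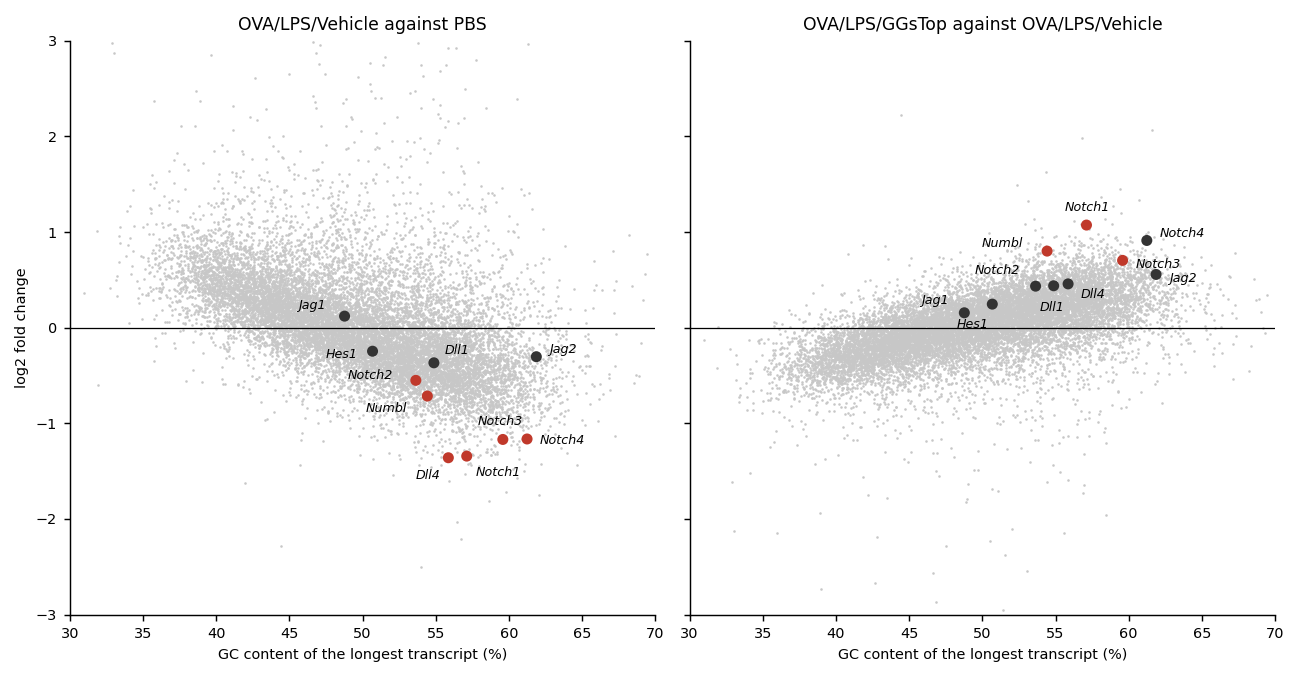
Log2 fold change of FPKM + 1 against the GC content of the longest transcript (%), for Vehicle against PBS (left) and GGsTop against Vehicle (right). Grey points are all genes tested (32 of 13987 on the left and 12 on the right lie outside the axes), large points are the 10 Notch genes, and red ones passed an adjusted p of 0.05. Fold changes of all genes slope down on the left and up on the right, and Notch1, Notch3, Notch4 and Dll4 lie near the lower edge on the left.

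Markers of endothelium were lower together with Notch1, Notch4 and Dll4 in Vehicle against PBS. The sum of the 10 endothelium markers was 1165 to 2141 FPKM in PBS, 845 to 1037 FPKM in Vehicle and 619 to 1435 FPKM in GGsTop, and no marker was at 0. Of these markers 6 of 10 were lower and 0 higher in Vehicle against PBS, beside 22.1% and 15.9% of all genes. Among the 6 were the tight junction gene Cldn5 (-0.95, SE 0.330, adjusted p = 0.0411 by limma) and the cadherin gene Cdh5 (-0.82, SE 0.273, adjusted p = 0.0361 by limma). After the GC correction 0 of 10 passed, beside 12.9% of all genes called lower, but all 10 marker estimates were below 0. Their median log2 fold change was then -0.61, beside -0.74 without the correction. Subtracting the mean log2(FPKM + 1) of the 10 markers in the same library left Dll4 at -1.38 to -0.94 in PBS and -2.12 to -1.61 in Vehicle, a difference of -0.70. Notch1 was then at -2.86 to -2.30 in PBS and -3.74 to -3.03 in Vehicle, a difference of -0.68. The groups stayed apart for both genes. These subtracted values were not corrected for GC content, which differs between the markers and the Notch genes. With the correction, Notch1 was at -1.02 and Dll4 at -1.08 in Vehicle against PBS, beside the marker median of -0.61. Notch4 was at -1.62 to -0.68 in PBS and -1.83 to -1.52 in Vehicle, a difference of -0.50 with overlapping ranges. The sum of the 8 smooth muscle and pericyte markers, led by Acta2 and Des, was 573 to 764 FPKM in PBS, 493 to 521 FPKM in Vehicle and 462 to 1086 FPKM in GGsTop. In Vehicle against PBS 2 of the 7 tested were lower and 1 higher, which is near the shares of all genes. The 8 multiciliated cell markers, led by Foxj1 and Rsph1, were all called higher in that comparison, beside 15.9% of all genes. The sum of these 8 markers was 72.2 to 122 FPKM in PBS, 203 to 261 FPKM in Vehicle and 166 to 373 FPKM in GGsTop. The part of these cell types in the Notch results was not tested beyond these values.

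**Figure D3:**
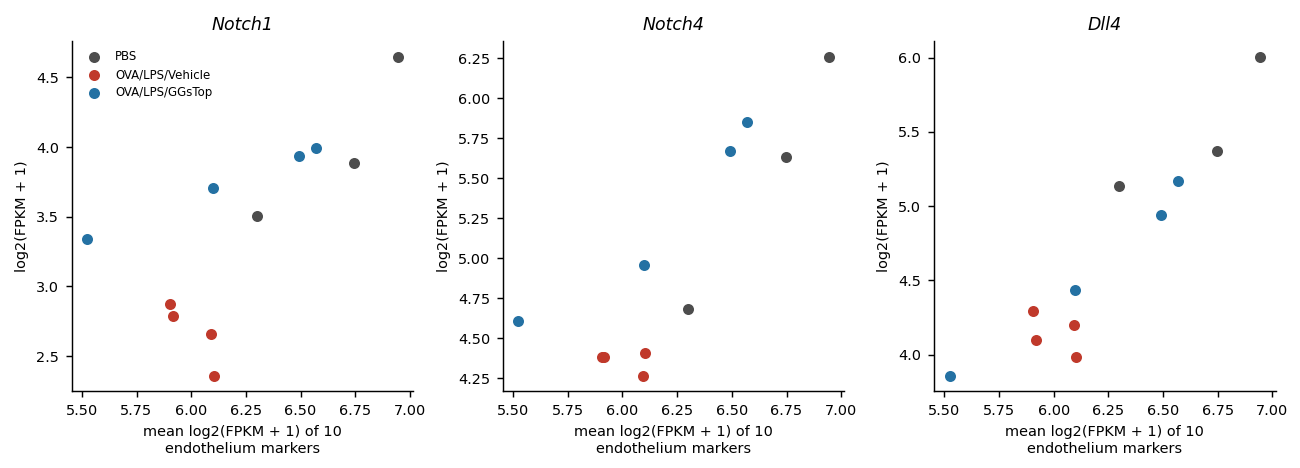
Log2(FPKM + 1) of Notch1, Notch4 and Dll4 (vertical axes) against the mean log2(FPKM + 1) of 10 endothelium markers (horizontal axes) in the 11 libraries; each point is a library, coloured by group. The Vehicle libraries lie low on both axes (marker mean 5.90 to 6.10, against 6.30 to 6.94 in PBS), and GGsTop 4, at 5.52, has the lowest marker mean.

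The comparison of GGsTop with Vehicle asks what GGsTop changed in exposed mice, and it shares the Vehicle libraries with the comparison above. All 10 genes had positive log2 fold changes, and 3 of them passed the test. Notch1 rose by 1.07 (SE 0.229, adjusted p = 0.0242), a 2.10-fold higher level, Notch3 by 0.70 (SE 0.191, adjusted p = 0.0456), a 1.63-fold higher level, and Numbl by 0.80 (SE 0.120, adjusted p = 0.0126), a 1.74-fold higher level on the scale of FPKM + 1. Notch2 (0.43, SE 0.123, adjusted p = 0.0503) and Notch4 (0.91, SE 0.326, adjusted p = 0.0923) did not pass limma, although their GGsTop libraries lay above all Vehicle libraries. Among the ligands, Jag2 was at 0.56 (95% interval 0.13 to 0.98, adjusted p = 0.0843 by limma), Dll4 at 0.46 (-0.12 to 1.03), Dll1 at 0.44 (-0.17 to 1.05) and Jag1 at 0.16 (-0.06 to 0.38). Hes1 was at 0.25 (-0.04 to 0.53). These 3 higher and 0 lower genes stand beside 6.90% of all genes tested called higher and 1.81% called lower, and by limma voom on the recovered fragments there were 4 higher, beside 6.82% of all genes, with Notch2 (adjusted p = 0.0486) added. With mitochondrial fragments left out of the total there were 2, and Notch3 was at 0.66 (adjusted p = 0.0546 by limma). The groups did not overlap for 6 of the 10 genes (Notch1, Notch2, Notch3, Notch4, Jag2 and Numbl), beside 17.3% of all genes that were higher without overlap.

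GC content ran along with this comparison in the opposite direction, with a Spearman's rho of 0.624 across the 13987 genes. In the top 20% of genes by GC content 17.8% of genes were called higher, and 2 of the 5 Notch genes there were. In the next 20%, 11.6% were called higher, and 1 of the 3 Notch genes there was. After the correction for GC content 1 of the 10 genes passed, beside 0.243% of all genes called higher: Numbl rose by 0.62 (SE 0.0990, adjusted p = 0.0309 by limma). Notch1 was at 0.81 (SE 0.202, adjusted p = 0.0776) and Notch3 at 0.41 (SE 0.161, adjusted p = 0.190) by limma, and only for Notch1, Notch2 and Numbl were the corrected GGsTop values above all Vehicle values. With the correction and without PBS 3, 2 of the 10 genes were higher by limma, beside 1.24% of all genes. Relative to the endothelium markers and without the GC correction, Notch1 was at -2.58 to -2.18 and Notch4 at -1.14 to -0.72 in GGsTop. Both lay above all Vehicle values, by a mean difference of 0.91 and 0.74, while Dll4, at -1.67 to -1.40, overlapped with the Vehicle values. The endothelium markers themselves gave 0 calls among 10 in this comparison by limma, beside 6.90% of all genes called higher and 1.81% called lower.

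The number of Notch genes called also differed with the libraries in the fit. With only the GGsTop and Vehicle libraries in the fit, 6 of the 10 genes were higher by limma (Notch1 adjusted p = 0.00421, Notch2 adjusted p = 0.0214, Notch3 adjusted p = 0.00683, Notch4 adjusted p = 0.0295, Jag2 adjusted p = 0.0308 and Numbl adjusted p = 0.00328), beside 15.1% of all genes called higher. The count was also 6 when PBS 2 or PBS 3 was left out, with 15.3% of all genes called higher without PBS 3, and 2 (Notch1 and Numbl) without PBS 1 or Vehicle 12. It was 1 without Vehicle 34, Vehicle 78, GGsTop 2 or GGsTop 3, and 0 without Vehicle 56 or GGsTop 1. The share of all genes called higher was 6.90% with all libraries and is not given here for exclusions other than PBS 3. Whether these counts only follow that share was not tested. Across all single exclusions the log2 fold change of Notch1 ran from 0.97 to 1.21, that of Notch3 from 0.63 to 0.78 and that of Numbl from 0.74 to 0.87.

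**Figure D4:**
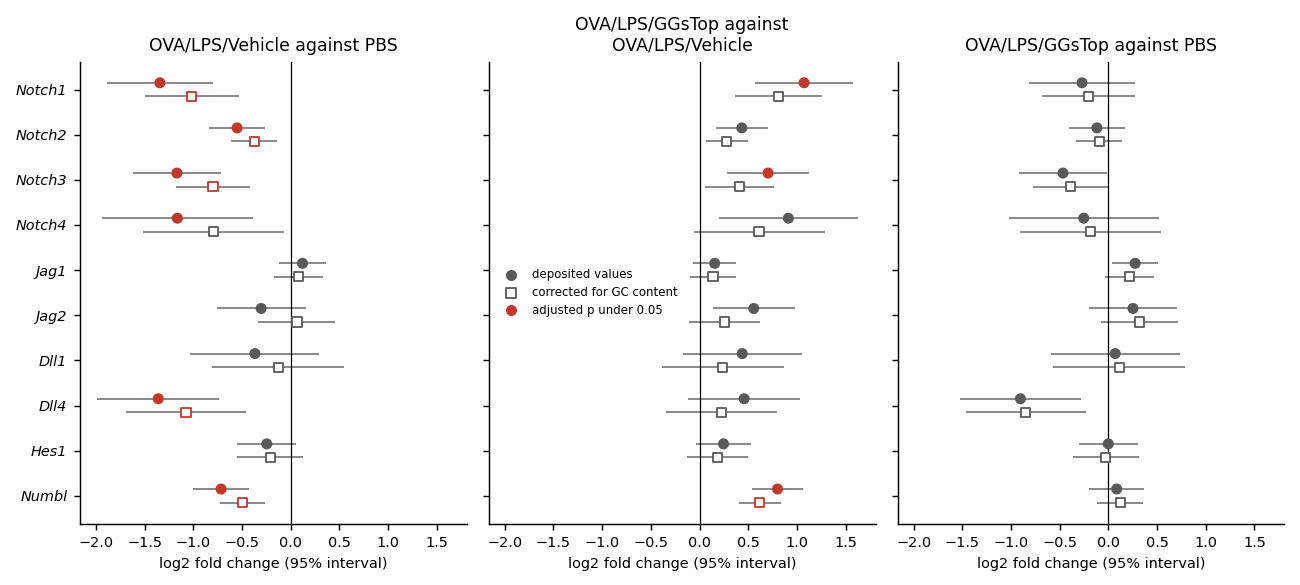
Log2 fold change of FPKM + 1 (horizontal axes, with 95% intervals) of the 10 Notch genes in the 3 comparisons. Filled circles are the deposited values, open squares the values after the correction for GC content, and red marks an adjusted p under 0.05 by limma. Calls number 6 and 5 in Vehicle against PBS, 3 and 1 in GGsTop against Vehicle, and 0 and 0 in GGsTop against PBS.

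The comparison of GGsTop with PBS, which shares its libraries with both others, gave 0 calls among the 10 genes by limma, beside 0.821% of all genes called lower and 2.06% called higher, and 0 by limma voom on the recovered fragments. At an unadjusted p under 0.05 there were 3 genes, Dll4 (-0.90, SE 0.285, adjusted p = 0.109 by limma), Notch3 (-0.47, SE 0.207, adjusted p = 0.231 by limma) and Jag1 (0.28, SE 0.109, adjusted p = 0.185 by limma). The intervals of the other receptors included 0 and stayed wide for Notch1 (-0.27, -0.81 to 0.27) and Notch4 (-0.25, -1.03 to 0.52), and Hes1 was at -0.00072 (-0.31 to 0.30). Leaving out PBS 2 gave 2 calls, Dll4 (-1.09, adjusted p = 0.0474 by limma) and Notch3 (-0.72, adjusted p = 0.0304 by limma), and leaving out GGsTop 3 gave Dll4 alone (-1.09, adjusted p = 0.0428 by limma). The shares of all genes called without these libraries are not given here. With the library numbers 1 to 3 as a block and the correction for GC content, Dll4 was called lower as well (-0.59, adjusted p = 0.0417 by limma), beside 0.885% of all genes called lower. The labels do not call libraries of the same number pairs, so this block is an assumption.

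The other genes of the pathway were taken from a list of 59 ligands, modifiers, proteases, nuclear factors, targets and inhibitors, of which 54 were high enough to test. In Vehicle against PBS, 19 of the 54 were lower and 8 higher, with a median log2 fold change of -0.22, beside -0.01 over all genes. Over all genes 22.1% were lower and 15.9% higher, so the count of those higher is near the share over all genes. The target Heyl, a repressor expressed in vascular smooth muscle, fell by 1.19 (SE 0.193, adjusted p = 0.00365 by limma), from 18.2, 10.6 and 22.9 FPKM in PBS to 6.55 to 6.73 FPKM in Vehicle. Of the nuclear corepressors, Ctbp1 fell by 0.58 (SE 0.109, adjusted p = 0.00494 by limma). Furin, the protease that processes the receptor precursor, fell by 0.75 (SE 0.135), and Aph1a, a subunit of γ-secretase, fell by 0.66 (SE 0.120). Rfng, a Fringe enzyme that modifies receptor sugars, fell by 0.71 (SE 0.147), and Dtx3 of the Deltex family fell by 0.81 (SE 0.158). The ubiquitin ligase adaptor Fbxw7, which marks the intracellular domain for degradation, rose by 0.50 (SE 0.0822, adjusted p = 0.00366 by limma). After the correction for GC content 8 of the 54 were lower and 6 higher, Heyl at -0.93 (adjusted p = 0.0116 by limma) and Fbxw7 at 0.35 (adjusted p = 0.0137 by limma) among them, beside 12.9% and 7.88% of all genes, and without PBS 3 as well 0 were lower and 2 higher, beside 1.12% and 1.09%.

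By role, Vehicle against PBS gave 2 lower and 0 higher of the 5 glycosylation enzymes, 4 lower and 2 higher of the 10 cleavage enzymes, 2 lower and 1 higher of the 9 nuclear complex genes, and 5 lower and 1 higher of the 10 corepressors. There were 2 lower and 2 higher of the 7 tested genes listed as targets. Those higher included Hes6, a Hes family member known to counteract Hes1. There were also 3 lower and 1 higher of the 7 inhibitors and turnover factors, 1 lower and 1 higher of the 4 genes of ligand endocytosis, and 0 of the 2 tested ligands. With so few genes per role, shares near those of all genes (22.1% and 15.9%) are no result about a role. In the nuclear complex, Rbpj itself was low and overlapped between groups, with means of 2.26 ± 0.477, 3.12 ± 0.468 and 2.97 ± 0.329 FPKM (SD, n = 3, 4 and 4). In GGsTop against Vehicle, 7 of the 54 were higher and 1 lower, beside 6.90% and 1.81% of all genes. Among those higher were Dtx3 (0.67, SE 0.146), Mib2 (0.67, SE 0.177), Rfng (0.64, SE 0.136), Spen (0.63, SE 0.133), Furin (0.56, SE 0.125) and Dtx2 (0.44, SE 0.0835), and the histone deacetylase Hdac2 fell by 0.54 (SE 0.147). Mib2 is a ubiquitin ligase that acts on the ligands and Spen a corepressor that binds RBPJ. In Vehicle against PBS, which shares the Vehicle libraries, Mib2 was at -0.79, Spen at -0.57, Dtx2 at -0.33 and Hdac2 at 0.76. The count of 8 changed with single libraries left out. It was 0 without Vehicle 34, Vehicle 56, GGsTop 1 or GGsTop 3, 1 without Vehicle 78, 3 without GGsTop 2 and 21 without PBS 3. Without PBS 3, 25.6% of all genes were called in either direction, beside 8.71% with all libraries. The shares for the other exclusions are not given here. After the correction for GC content 0 of the 54 passed limma in this comparison, beside 0.400% of all genes.

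In GGsTop against PBS, 1 of the 54 genes was higher and 0 lower, beside 2.06% and 0.821% of all genes, so the count is near the share over all genes. Hes6, a member of the Hes family known to counteract Hes1, rose by 0.99 (SE 0.169, adjusted p = 0.0160 by limma), from 13.3, 15.9 and 21.3 FPKM in PBS to 30.5, 33.0, 29.9 and 43.8 FPKM in GGsTop, with no overlap. The value was 1.06 (adjusted p = 0.00535 by limma) after the correction for GC content, where Heyl was also lower (-0.75, SE 0.178, adjusted p = 0.0433 by limma). With the library numbers 1 to 3 as a block, 0 of the 54 passed limma, beside 0.443% of all genes. The count was also 0 without PBS 1 or GGsTop 1, and it was 6 without PBS 2 and 3 without GGsTop 3. The shares of all genes called without these libraries are not given here. In Vehicle, Hes6 was at 20.9, 24.5, 23.1 and 26.6 FPKM, overlapping with PBS only at PBS 3 and Vehicle 12 (0.49 against PBS, adjusted p = 0.0400 by limma). In GGsTop against PBS, 5 of the 8 multiciliated cell markers were also called higher, beside 2.06% of all genes. All 8 had positive log2 fold changes, with a median of 1.21. The part of these cells in the change of Hes6 was not tested. The 5 genes too low for the fit had exact two-sided permutation p-values of at least 0.143 in each comparison, where the smallest that the design allows is 0.0286.

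**Figure D5:**
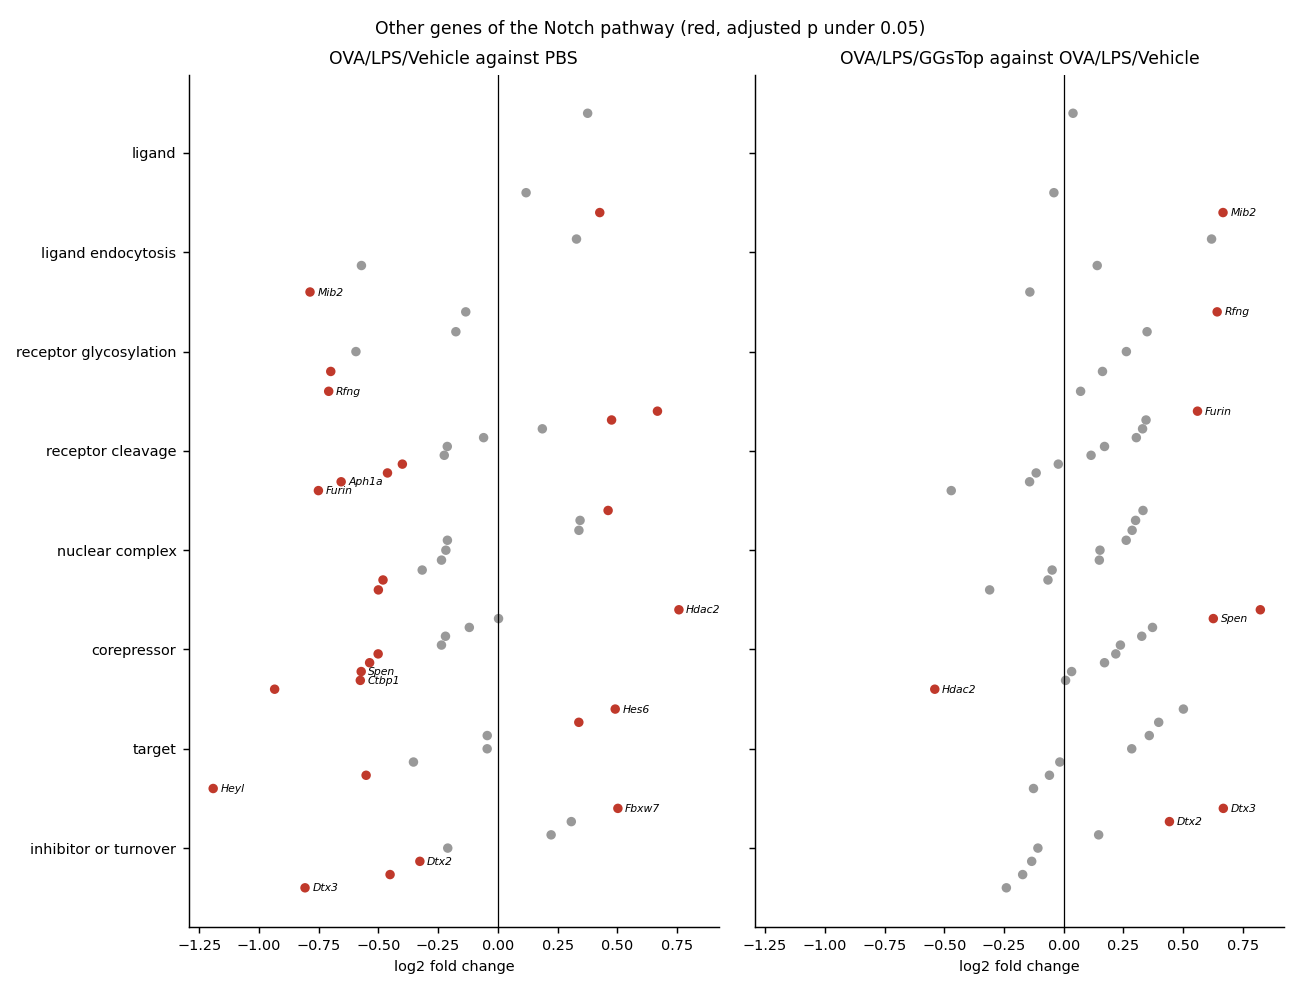
Log2 fold change of FPKM + 1 of the 54 other Notch pathway genes that were tested, grouped by role, in Vehicle against PBS (left) and GGsTop against Vehicle (right). Red points passed an adjusted p of 0.05 by limma, 27 on the left and 8 on the right, and those described in the text are named.

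The genes whose pattern over the 11 libraries was most like that of each receptor were found by the root mean square (RMS) difference of log2(FPKM + 1), each gene centred on its own mean. The nearest to Notch1 were Tle2 (0.122) and Piezo1 (0.133), beside an RMS of 0.661 of Notch1 around its own mean. Those to Notch2 were Tbc1d16 (0.0566) and Copg1 (0.0662), beside 0.280. For Notch3 they were Soga1 (0.0327) and Exoc3l4 (0.0931), beside 0.537, and for Notch4 Dock6 (0.146) and Ccm2l (0.162), beside 0.679. Of these 8 genes, 7 had a GC content of 56.5% to 60.3%, and Copg1 had 48.1%, beside a median of 49.9% over the genes tested. The 8 nearest genes were all different.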

How the data were processed

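The authors deposited FPKM per gene for 11 mouse airway libraries, 1 column each, from poly-A selected RNA sequenced by a service company. The submitters' processing notes name cutadapt 1.15, HISAT2 2.0.5, HTSeq 0.9.1 and the build mm39. The annotation and the strand setting of the counting are not given in the sources used here. GENCODE M21 on GRCm38 gave a symbol for 21846 of the 21899 identifiers, and was used for symbols, exon length and GC content and, with RefSeq on GRCm38.p6, for promoter windows, not to place the FPKM. FPKM times merged exon length gave whole fragments (tolerance 0.02) in every library for 97.8% of genes. Libraries were grouped by their labels.

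All libraries entered 1 model of log2(FPKM + 1) over the 14004 genes whose mean reached 0.5 FPKM, fitted with limma 3.58.1 (R 4.3.3) with a mean-variance trend; two-sided p-values had a Benjamini-Hochberg adjustment over these genes, and calls needed an adjusted p under 0.05. A fold change on this scale understates that of low genes, Numbl in particular. The count model of the study, DESeq, was not used. To correct for GC content, the deviations from the gene means were smoothed on it in each library (natural spline, 5 degrees of freedom) and the smooth was subtracted. Genes under the filter had an exact permutation test. The fit was tested on simulated data. Limma voom on the recovered fragments called 5528 of 13991 genes in Vehicle against PBS, 1181 in GGsTop against Vehicle and 340 in GGsTop against PBS.

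PBS and GGsTop share the numbers 1 to 3, which the labels do not call pairs. The deviations of same-numbered libraries from their group means correlated at 0.367, 0.427 and 0.428. The numbers were taken as pairs in an alternative fit only, as an assumption. PBS 1 correlated more with GGsTop 3 (0.457) and PBS 2 with GGsTop 4 (0.637), so the correlations do not single out equal numbers. The Notch genes and all lists were chosen with earlier results of these data known. Named are all 10 Notch genes, up to 8 other pathway genes with the smallest p in each comparison, the 2 genes nearest to each receptor and the 2 highest markers of a cell type; Rbpj is outside this rule and was chosen after its values were seen. A result that the rule names is not reported here. Markers of 7 cell types were summed in FPKM. Other alternatives were the pseudocount, filter, scaling, groups in the fit and each library left out. Python 3.11.15 with numpy 2.4.6, pandas 2.3.3 and matplotlib 3.10.9 made the tables and plots.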

Additional observations from a re-analysis of the deposited data

Results flagged for a closer look

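Within the groups of 4 libraries, the highest or lowest library was set against the others for each of the 10 Notch genes, by its gap to the nearest library divided by the range of the group. Of 20 such groups, 2 exceeded the 95% critical value of Dixon's test, which chance alone exceeds in about 1 of 20 groups. Notch2 in Vehicle 56, at 8.68 FPKM against 11.01 to 11.4 FPKM in the other 3 libraries, had a ratio of 0.87. Hes1 in GGsTop 3, at 42.0 FPKM against 29.4 to 31.4 FPKM in the other 3 libraries, had a ratio of 0.847.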

How the results depend on the processing

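With 3 or 4 libraries per group, the intervals leave room for sizeable differences that did not pass, and the slope of PBS 3 with GC content bears on every comparison with PBS. Rescaling to the same FPKM total moved the median of all genes to -0.15 in Vehicle against PBS and 0.11 in GGsTop against Vehicle, and for the latter comparison the genes called lower and higher were 254 and 966 as deposited, 354 and 344 with the same median and 155 and 2026 with the same total. The cause of a changed call was not tested.

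The count of Notch genes called in Vehicle against PBS was 6, between 5 and 6 without any 1 library, and 0 with the GC correction without PBS 3. In GGsTop against Vehicle it was 3, then 5 at the same FPKM total and 6 with the 2 groups only. It was 1 with the GC correction, 2 with that correction and without PBS 3, and 0 to 6 without any 1 library. In GGsTop against PBS it was 0, then 0 to 2 without any 1 library and 1 with the replicate block and GC correction; the block without that correction changed no call of a Notch gene. For the other pathway genes the first comparison gave 27, then 14 with the GC correction, 2 without PBS 3 as well, and 20 to 32 without any 1 library. Of all genes, 38.0% were called in either direction there, then 20.8% with the GC correction and 2.21% without PBS 3 as well. The second gave 8, then 4 at the same median, 17 at the same total, 20 with the 2 groups only, 0 with the GC correction, 2 without PBS 3 as well, and 0 to 21 without any 1 library. The share of all genes called in either direction moved too, from 8.71% to 4.98% at the same median and 15.6% at the same total. It was 25.2% with the 2 groups only, 25.6% without PBS 3, 0.400% with the GC correction and 2.13% with that correction and without PBS 3. The third gave 1, then 4 at the same total, 0 with the 2 groups only, 2 with the GC correction, 0 with the replicate block, and 0 to 6 without any 1 library. Of all genes, 2.88% were called in either direction there, then 3.52% at the same total and 0.278% with the 2 groups only. With the GC correction the share was 4.24%, and with the replicate block 0.443%. For single libraries left out of the uncorrected fit, the share is given only for GGsTop against Vehicle without PBS 3.

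Signs changed only for genes that had not been called. In Vehicle against PBS these were Jag1 at the same total (-0.0447), Jag2 (0.0630) with the GC correction, and Jag2 (0.17) and Dll1 (0.0846) with it and without PBS 3. In GGsTop against PBS they were Notch1 (0.0243) and Notch4 (0.0700) with the GC correction without PBS 3, Notch4 (0.0541) with the block and GC correction, Notch1 (0.22) and Notch4 (0.24) relative to the endothelium markers, Dll1 at the same total (-0.00317), and Hes1 by voom (0.00045), with the replicate block (0.0277), with the block and GC correction (0.0171) and without mitochondrial fragments (0.0248). Without any 1 library, the range in that comparison was -0.52 to 0.0465 for Notch1, -0.19 to 0.00018 for Notch2, -0.67 to 0.12 for Notch4, -0.12 to 0.35 for Dll1, -0.11 to 0.12 for Hes1 and -0.00472 to 0.18 for Numbl. The mitochondrial and endothelium alternatives were chosen after seeing the data.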
